A study of Mus musculus with 9 samples.

Results

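The genes described here encode the proteins of the cytosolic ribosome, the particle that translates messenger RNA outside mitochondria. They were chosen by symbol, as Rpl or Rps followed by a digit plus Rplp0, Rplp1, Rplp2 and Rpsa, with the Rps6k kinases and all pseudogenes left out. Of the 18450 genes in the table, 87 of the 89 annotated matches had a row, and Rps7 and Rpl10l were not analysed here. The 87 were divided into 76 core ribosomal protein genes, 10 paralogs and retrocopies, and Rps19bp1, which matches by name and is no ribosomal protein. The core comprises 46 genes of the large subunit and 30 of the small subunit.

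The samples were bulk RNA libraries from brain tissue of 9 mice, all of genotype APP/PS1, a transgenic line carrying amyloid precursor protein and presenilin transgenes as a model of Alzheimer's disease amyloid pathology. By the group field, 3 mice were exposed to stress, 3 were standard environment controls and 3 were housed in an enriched environment. The treatment field reads standard rearing for all 9 animals, no wild-type animals are among the samples, and the promoter of the transgenes, age, sex and what the stress consisted of are not given in the sources used here. RNA came from the brain stem pooled with the front part of the brain of each perfused animal. Replicate numbers follow accession order and pair no animals. Animal codes in the titles start with the letter C for the stress group and control 1 and with D for the enriched group and controls 2 and 3, and the meaning of the letter is not given. Each library held between 15851833 and 17213008 estimated counts, and all 10 neuronal markers examined were detected in every library. In bulk tissue, fewer cells of a type and less RNA per cell cannot be told apart, and the p-values measure the spread between the animals as labelled.

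A ribosome joins a small subunit, which reads the messenger RNA, with a large subunit, which forms the peptide bond. In mammals most ribosomal protein messenger RNAs are short, abundant and begin with a terminal oligopyrimidine tract, a C followed by a run of C and T bases, through which the mTORC1 kinase complex and the RNA-binding protein LARP1 adjust their translation together. In neurons these messenger RNAs are also carried into axons and dendrites.

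Start-site sequences are shown because this tract is the feature the family shares at its 5′ ends. Each line gives the 15 bases before and the 15 bases from the annotated start, written 5′ to 3′ on the coding strand, for 3 short genes, the longest gene, the stalk genes Rplp0 and Rplp2 and genes with the smallest p-values below. Capitals mark the first CTTT where the window holds one, which need not be the tract.
Rpl38: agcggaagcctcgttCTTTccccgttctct
Rps27: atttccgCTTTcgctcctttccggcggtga
Rpl41: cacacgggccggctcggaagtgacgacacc
Rplp2: tgcgtcagcgtcttcCTTTcgccgccggac
Rpl18: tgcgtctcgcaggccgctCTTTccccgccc
Rps15a: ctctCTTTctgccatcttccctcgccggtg
Rplp0: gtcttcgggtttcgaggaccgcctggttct
Rps18: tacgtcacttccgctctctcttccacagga
Rpl24: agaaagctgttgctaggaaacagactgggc
Rpl23: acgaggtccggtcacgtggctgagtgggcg
The sequences are credited to RefSeq, build GRCm38.p6, with Rpl38 at chr11:114668565-114668594 on the plus strand, Rps27 at chr3:90213634-90213663 on the minus strand, Rpl41 at chr10:128549154-128549183 on the minus strand, Rplp2 at chr7:141447636-141447665 on the plus strand, Rpl18 at chr7:45718056-45718085 on the plus strand. The others are Rps15a at chr7:118116133-118116162 on the minus strand, Rplp0 at chr5:115559452-115559481 on the plus strand, Rps18 at chr17:33955651-33955680 on the minus strand, Rpl24 at chr16:55966260-55966289 on the plus strand and Rpl23 at chr11:97782425-97782454 on the minus strand.

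Of the 76 core genes, 56 had an entry in the start-site table. On the coding strand CTTT occurred in 19 of these 56 windows (33.9%), against 11.7% of the windows of all 27025 genes with an entry. Its reverse complement AAAG occurred in 4 windows (7.14%), against 11.4% of all windows. CTTTC, which contains CTTT, occurred in 26.8% of the ribosomal protein windows and 3.97% of all windows, and CTTTT, which also contains it, in 8.93% and 3.03%. A run of at least 8 bases that were all C or T lay in 41.1% of the ribosomal protein windows and 11.9% of all windows. Among the sequences shown, the short Rpl38 and the long Rps15a both hold CTTT. Rplp0, Rps18, Rpl24, Rpl23 and Rpl41 do not hold it within this window. CTTT is not the tract itself. In Rps27 and Rps15a the capitals lie before the annotated start, while Rps18 has a run of C and T bases from its start. A match describes letters only and is no measured site.

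The coding sequence of Rpl41 is shown as the smallest product of the family, with 78 coding bases from start to stop codon in capitals, on chromosome 10 (GENCODE M21, GRCm38).
Rpl41: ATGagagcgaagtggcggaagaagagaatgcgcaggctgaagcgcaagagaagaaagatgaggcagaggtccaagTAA
The family is short as measured. The effective length of a gene, the number of positions from which a fragment can start, was taken from the deposited counts and FPKM. It had a median of 481.8 bases over the 76 core genes and 2894.8 bases over the 14694 genes that passed the filter on low counts. It ran from 76.7 bases for Rpl38 to 5053.3 bases for Rps15a, and 42 of the 76 lay under 500 bases. All 76 core genes passed the filter.

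The level of each gene was compared in TPM, the deposited transcript abundance, which divides by effective length. Rpl38, a large subunit protein required in mice for normal patterning of the axial skeleton, had the highest level, with a mean of 4673 TPM over 9 libraries and a range of 3777 to 6081 TPM. Rps27 followed at 3990 TPM, Rps21 at 3127 TPM, the stalk gene Rplp1 at 3013 TPM and Rps15 at 2868 TPM. At the other end lay Rps6 at 44.1 TPM, Rps20 at 52.8 TPM, Rps15a at 59.0 TPM, Rpl22 at 114 TPM and Rps3 at 309 TPM. The highest level was thus carried by the gene with the shortest effective length. Rps15a, Rps20, Rpl22 and Rps3 had the longest transcript models of the family, between 1675.3 and 5053.3 bases, and Rps6 shares its reads with a copy described below. The order in TPM thus depends on the length of the transcript model. In reads scaled by library size alone (CPM), Rps15a was at 155, 173 and 149 in stress, control and enriched animals. Rpl38 was at 169, 214 and 151 CPM, so these 2 genes were close in reads and far apart in TPM. Of the 76 core genes, 74 had every coding transcript of the annotation in the table, Rpl29 and Rps19 being the exceptions.

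**Figure D1:**
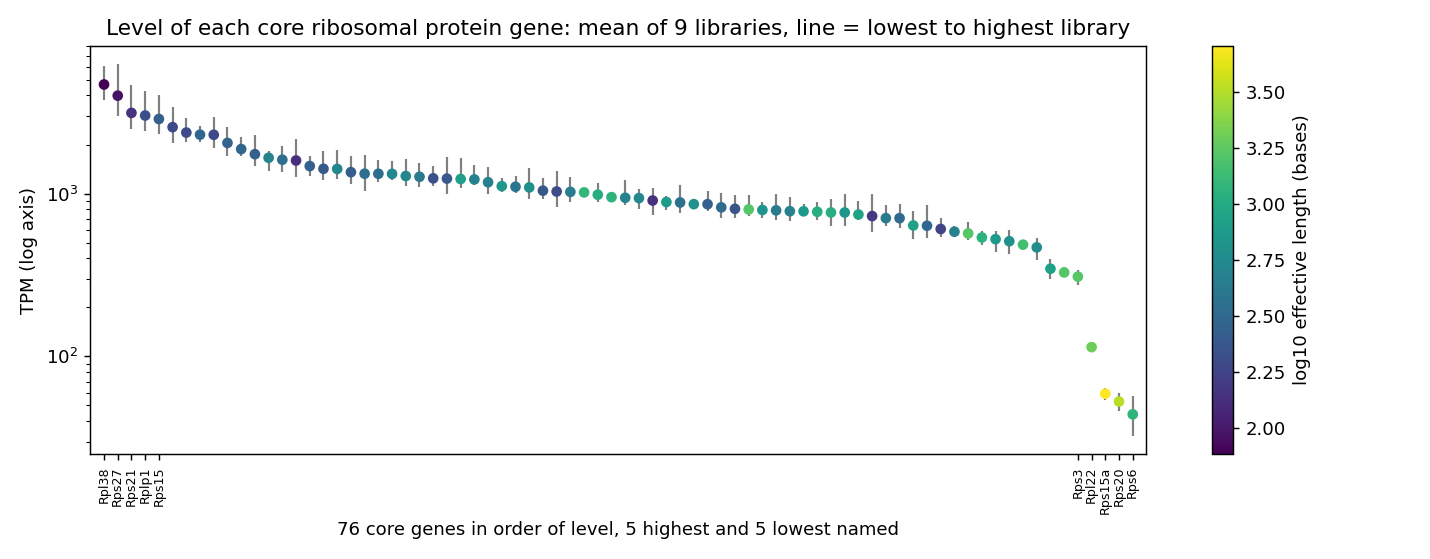
Level of each of the 76 core ribosomal protein genes in TPM on a log axis, ordered from highest to lowest. Points are means of 9 libraries, lines run from the lowest to the highest library colour gives log10 effective length in bases, and the 5 highest and 5 lowest genes are named. Levels run from 4673 TPM for Rpl38 to 44.1 TPM for Rps6, and the longest models sit at the low end.

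The summed reads of the 76 core genes made up 1.85%, 1.74% and 2.17% of the counts in the 3 stress libraries. In the controls they made up 2.77%, 2.07% and 1.98%, and in the enriched libraries 1.94%, 1.68% and 1.70%. Control 1 was the highest of the 9, stress 3 the second, and enriched 2 the lowest. All enriched libraries lay below all controls, with controls 2 and 3 close to enriched 1, while stress overlapped the controls. The means were 1.92% ± 0.223 for stress, 2.27% ± 0.432 for control and 1.77% ± 0.142 for enriched animals (SD, n = 3 each). As a share of deposited TPM the 3 groups overlapped. The core genes held 8.78%, 8.38% and 10.1% of TPM in stress, 11.7%, 9.20% and 9.26% in control and 9.67%, 8.20% and 8.44% in enriched libraries, so enriched 1 lay above controls 2 and 3 on that scale. The effective length of the same transcript differed between libraries, for Rpl38 from 56.8 bases in enriched 1 to 74.7 bases in control 3, and this enters TPM and not counts.

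The family moved as a block from library to library. Each gene's log2 CPM (reads scaled by the TMM-adjusted library size) was expressed as its deviation from its own mean over the 9 libraries. The mean deviation of the 76 genes was -0.13, -0.22 and 0.16 in stress, 0.55, 0.08 and 0.02 in control and -0.02, -0.24 and -0.21 in enriched libraries. In control 1 all 76 genes lay above their own mean, in stress 3 it was 72 of 76, and in enriched 2 it was 0. Over the 9 libraries, the Pearson correlation of a core gene with the median of the other core genes was at least 0.9 for 67 genes. The median correlation was 0.97, a description over libraries that the genes share. Rps6 alone lay under 0.5, at 0.20, and Rpl23 followed at 0.74 and Rpl36 at 0.79. The subunits kept their proportion, with 1.74 to 1.85 reads of large subunit genes for each read of a small subunit gene.

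**Figure D2:**
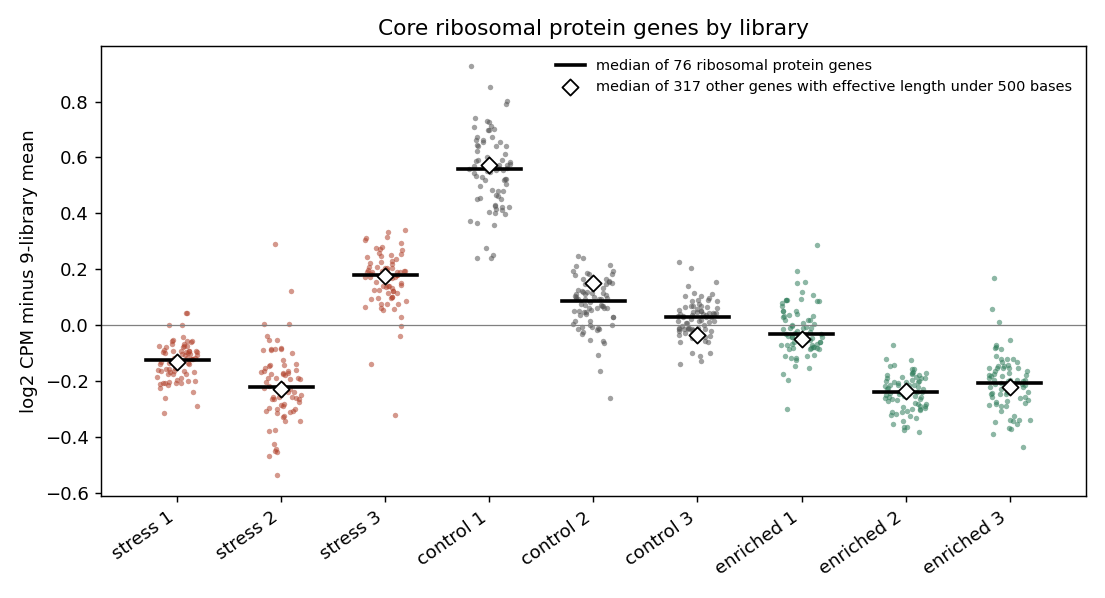
Deviation of log2 CPM from the 9-library mean for each of the 76 core genes (points) in each library, with their median (bar) and the median of the 317 other tested genes with an effective length under 500 bases (diamond). Control 1 stands highest with a median of 0.56, enriched 2 lowest at -0.24, and the diamonds lie within 0.07 of the bars.

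Other short genes took the same order. The 317 other tested genes with an effective length under 500 bases had a median deviation of -0.13, -0.23 and 0.18 in stress, 0.57, 0.15 and -0.04 in control and -0.05, -0.24 and -0.22 in enriched libraries. The 42 core genes under 500 bases had medians of -0.15, -0.26 and 0.19, of 0.59, 0.10 and 0.05, and of -0.05, -0.25 and -0.22. The slope of the deviation on log2 effective length over all genes tested was steepest in control 1, at -0.22 for each doubling of length, and reached 0.11 in enriched 3. With a smooth length trend taken out of each library, the mean deviation of the 76 genes lay between -0.06 in control 2 and 0.05 in control 1, and control 1 no longer stood apart.

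Cell composition was read from marker lists. The summed level of 10 of 11 choroid plexus markers was 3119 to 3822 CPM in control, 380.0 to 1553 CPM in stress and 46.1 to 2198 CPM in enriched libraries. Folr1 was at 0 in 1 library. On this sum every control lay above every other library, while stress and enriched libraries overlapped. The mean log2 deviation of these markers was 1.12, 1.13 and 1.66 in controls 1, 2 and 3 and -0.76, 0.66 and 0.19 in stress. In enriched libraries it was -2.36, 1.065 and -2.71, so enriched 2 lay near controls 1 and 2. Of 8 endothelial markers the sum was 86.2 to 115 CPM in control, 137 to 323 CPM in stress and 100.3 to 194 CPM in enriched libraries. All 8 ependymal markers summed to 40.8 to 53.1 CPM in control, 31.0 to 42.02 CPM in stress and 30.4 to 41.6 CPM in enriched libraries. The 10 neuronal markers summed to 7784 to 8246 CPM in control, 7710 to 8850 CPM in stress and 8194 to 8515 CPM in enriched libraries. The brain stem list, 11 of 12 markers, summed to 28.25 to 127 CPM in control, 21.25 to 177 CPM in stress and 24.6 to 79.8 CPM in enriched libraries, with median log2 fold changes against control of -0.79 in stress and -1.27 in enriched animals. In this list Hoxa2 was at 0 in 1 library, Hoxa3 in 2 and Hoxa5 in 2. The 8 oligodendrocyte markers summed to 2521 to 4620 CPM in control, 2320 to 5665 CPM in stress and 3031 to 3462 CPM in enriched libraries, and all 8 were below 0 in enriched against control, with a median of -0.25. For 7 of 8 neutrophil markers the sum was 33.1 to 65.9 CPM in control, 45.3 to 194.5 CPM in stress and 22.6 to 102 CPM in enriched libraries, with a median log2 fold change of 1.31 in stress against control. The part of these cell types and regions in the ribosomal protein result was not tested.

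Stress was compared with control to ask whether stress exposure went with another level of the ribosomal protein genes. Under the quasi-likelihood test of edgeR, adjusted after Benjamini and Hochberg over 14694 genes, 0 of 76 core genes passed an adjusted p of 0.05, with 0.0% of all genes called. DESeq2 and limma on TPM also called 0 of the 76, while of all 14694 genes DESeq2 called 7 and limma on TPM 0. The median log2 fold change of the 76 was -0.28, against 0.02 over all genes tested, and 75 of 76 values were below 0 where 47.7% of all genes were. Unadjusted p-values under 0.05 with lower values in stress were found for 13 of 76 (background 3.78%) and with higher values for 0 (background 4.2%). In DESeq2 the same count was 18 and in limma on TPM it was 5, where 624 and 207 of all 14694 genes were lower at that level. These counts rested on single libraries. Without control 1, the median was -0.10, against 0.011 over all genes, and 68 of 76 values were below 0. In that fit 0 core genes had an unadjusted p under 0.05, where 169 of all 14826 genes were lower. The count was also 0 without stress 1 or stress 2 (298 of 14794 and 168 of 14835 of all genes). It was 8 without enriched 2 or enriched 3 (422 of 14830 and 402 of 14844). It was 30 without control 3 (1598 of 14853) and 42 without stress 3 (1550 of 14844). Over all genes the count thus also rose without control 3 or stress 3, from 555 of 14694 in the main fit.

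Rps18, a protein of the small subunit head, had the smallest p of the core. Its levels were 107, 103 and 126 CPM in stress and 177, 129.9 and 131 CPM in control libraries. This was the only core gene whose stress and control values did not overlap, where 4.65% of all genes were lower in stress without overlap. Its log2 fold change was -0.38 ± 0.14 (SE, unadjusted p = 0.0203, adjusted p = 0.546). The next smallest p-values belonged to Rpl18, Rps16, Rpl13 and Rps10, with log2 fold changes of -0.41, -0.42, -0.45 and -0.39. In each of these 4 genes stress 3 reached into the control range. Rpl23, a large subunit protein that also binds the p53 regulator MDM2, was the only core gene with a value above 0, at 0.03 ± 0.13.

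The enriched and control animals were compared for the same question about enrichment. Again 0 of 76 core genes passed an adjusted p of 0.05 in edgeR (0.0% of all genes), and DESeq2 and limma on TPM called 0 of the 76. Of all 14694 genes, DESeq2 called 40 and limma on TPM 0. The smallest adjusted p of the core in edgeR was 0.236. The median log2 fold change was -0.40 against 0.02 over all genes, and all 76 values were below 0 where 48.3% of all genes were. Unadjusted p-values under 0.05 with lower values in enriched animals were found for 49 of 76, where the background was 10.4%, and with higher values for 0, where it was 9.93%. The lower count was 58 in DESeq2 and 10 in limma on TPM, where 1670 and 442 of all 14694 genes were lower at that level. All 3 enriched libraries lay below all 3 controls for 45 of 76 genes, where the background was 13.6%. Without control 1 the median was -0.22, against 0.002 over all genes, and 75 of 76 values were below 0. In that fit the count of 49 became 5, where 508 of all 14826 genes were lower. Without enriched 2 that count became 7 (736 of 14830 of all genes) and without enriched 3 it became 10 (502 of 14844). Without control 3, 7 of 76 core genes passed the adjusted threshold, Rpl18, Rpl24 and Rplp2 among them. In that fit 1586 of all 14853 genes passed, so the core share was no larger than that of all genes.

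Rpl24, a protein at the interface of the subunits, had the smallest p of the core here. It was at 272, 239 and 234 CPM in enriched and at 423, 327 and 299 CPM in control libraries. No enriched library reached a control, and control 1 was the highest. Its log2 fold change was -0.50 ± 0.16 (SE, unadjusted p = 0.0102, adjusted p = 0.236). Rplp0, the protein that anchors the stalk of the large subunit, where translation factors bind, was at 307, 269.9 and 281 CPM in enriched and 432, 354 and 335 CPM in control libraries. The groups did not overlap, and its log2 fold change was -0.39 ± 0.12 (unadjusted p = 0.0110). Rpl35a, Rpl18 and Rps18 followed with log2 fold changes of -0.43, -0.49 and -0.40, also without overlap.

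The other stalk genes gave the same order of groups. Rplp1 was at 313 ± 64.1, 419 ± 136 and 288 ± 30.2 CPM in stress, control and enriched animals (mean ± SD, n = 3), with a log2 fold change of -0.54 ± 0.22 in enriched against control animals. Rplp2, which pairs with Rplp1 in the stalk, was at 100.4 ± 12.8, 134 ± 35.2 and 94.2 ± 11.96 CPM. Rpsa, also known as the laminin receptor precursor, was at 668 ± 57.0, 818 ± 206 and 642 ± 71.7 CPM. Its enriched and control values overlapped, with 724 CPM in enriched 1 above 652 CPM in control 3. Rps27a, made as a fusion with ubiquitin, was at 228 ± 25.2, 294 ± 71.5 and 214 ± 17.8 CPM. In each of these 4 genes the control SD, which holds the high control 1, was the largest.

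Fold changes within the family followed length in both comparisons with control. Across the 76 genes, the Spearman correlation of log2 fold change with log2 effective length was 0.61 for stress and 0.58 for enriched against control, and 0.06 between stress and enriched. These are correlations across genes of the same libraries, the first pair shares its controls, and genes are not independent replicates. The 5 shortest genes, Rpl38, Rps27, Rps29, Rps21 and Rps28, had log2 fold changes in enriched against control animals of -0.50, -0.40, -0.50, -0.58 and -0.41. The 5 longest, Rps15a, Rps20, Rpl22, Rps3 and Rpl21, had values of -0.22, -0.29, -0.24, -0.35 and -0.39. Rps21 was at 210.2, 178 and 189.6 CPM in enriched and 398, 239 and 228 CPM in control libraries. Rps15a was at 161, 140.3 and 144 CPM in enriched and 205, 158 and 157 CPM in control libraries. The enriched and control ranges were separate for Rps21 and overlapped for Rps15a, and control 1 was highest in both.

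Other genes under 500 bases gave similar fold changes. The 317 other tested genes under 500 bases had a median log2 fold change of -0.31 in stress and -0.42 in enriched against control animals, while the 42 core genes under 500 bases had -0.34 and -0.44. From 500 to 1000 bases the 964 other genes had -0.23 and -0.35, and from 1000 bases the 13337 other genes had 0.04 and 0.05. The 15 core genes of 1000 bases or more had -0.21 and -0.33, with all 15 below 0 in each comparison. These sets differ in length, with median effective lengths of 1415.2 bases for the 15 and 3121.1 bases for the 13337. The 3118 other genes of 1000 to 2000 bases had median deviations of 0.23, 0.10 and -0.02 in control and -0.04, -0.10 and -0.11 in enriched libraries. The 13 core genes of that length had 0.42, 0.07 and 0.02 in control and -0.025, -0.20 and -0.165 in enriched libraries. With the length trend taken out, the median of the 76 genes was -0.01 for stress and 0.00 for enriched against control animals, with 42 and 39 of 76 values below 0. After this step 1 of 76 had an unadjusted p under 0.05 with a lower value in each comparison (background 3.49% and 5.79%). The genes were Rps3, a small subunit protein that also acts in DNA repair, at -0.23 ± 0.09 in stress, and Rps15a at -0.42 ± 0.16 in enriched animals. For Rps15a the unadjusted p was 0.0968 before the step and 0.0273 after it. Its log2 fold change before the step was -0.22, and the change came from the trend at its model length of 5053.3 bases. Rpl23 was higher in stress than in control after this step, at 0.23 ± 0.07 (unadjusted p = 0.0105, adjusted p = 0.594), where the background of higher values was 4.63%, and in enriched animals 0 genes were higher, where it was 6.59%. For the 15 longest core genes the medians of -0.21 and -0.33 became -0.12 in stress and -0.13 in enriched animals, with 12 of 15 values below 0 in each. The smooth trend was fitted on all genes, these 76 included, and what it takes from a gene depends on the length of its transcript model.

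**Figure D3:**
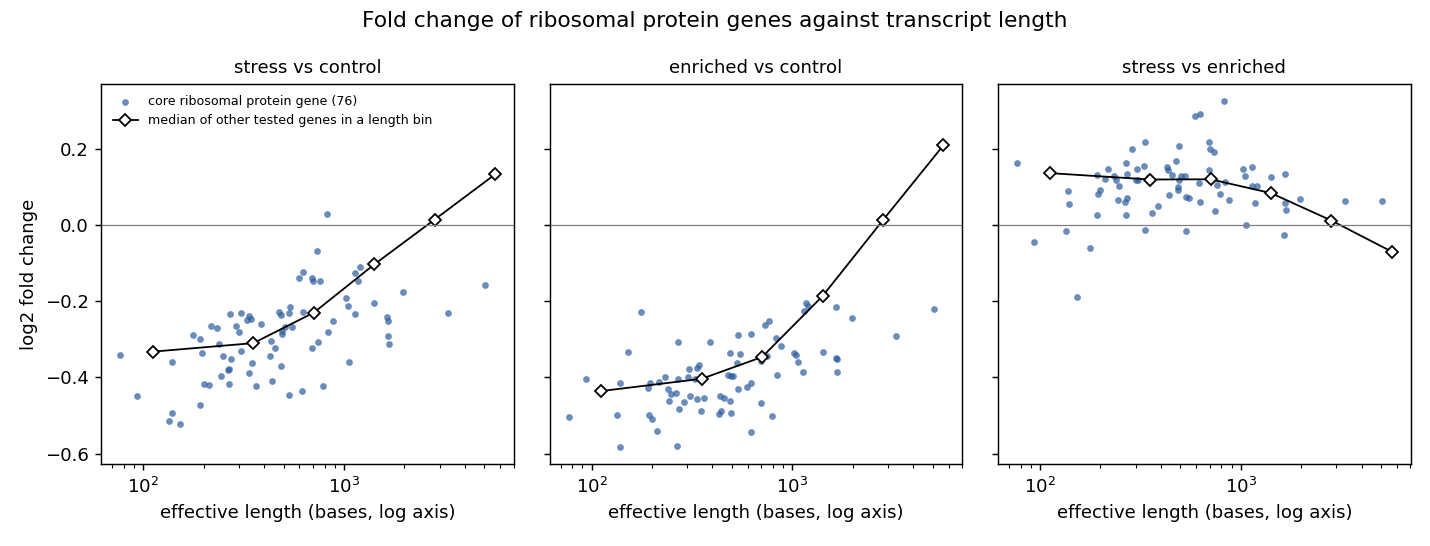
Log2 fold change of the 76 core genes (points) against effective length in bases on a log axis, for each comparison, with the median of all other tested genes in length bins (diamonds joined by a line). Against control the points lie lowest at short lengths and near the line up to about 1000 bases, and the longest models lie below it. Between stress and enriched animals they show no slope.

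**Figure D4:**
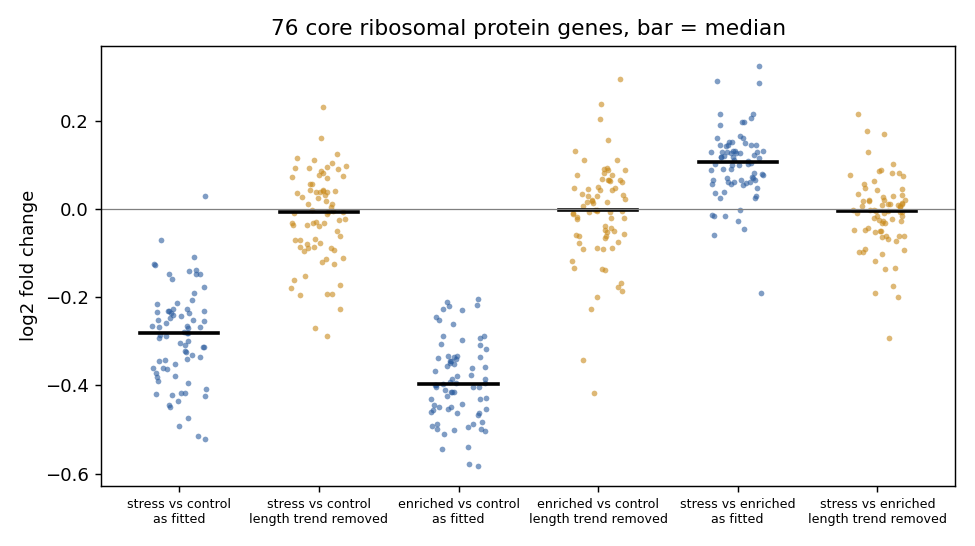
Log2 fold changes of the 76 core genes as fitted and with the length trend removed, for each comparison, with bars at the medians. The medians of -0.28, -0.40 and 0.11 become -0.01, 0.00 and 0.00.

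Stress and enriched animals were compared directly. In edgeR 0 of 76 core genes passed the adjusted threshold (0.0% of all genes, smallest adjusted p 0.999). DESeq2 and limma on TPM called 0 of the 76 and 0 of all 14694 genes. The median log2 fold change was 0.11, with 68 of 76 values above 0 where 51.9% of all genes were, and without stress 3 it was -0.01 with 33 above 0. An unadjusted p under 0.05 with a higher value in stress was found for 1 of 76 (background 1.25%) and with a lower value for 0 (background 1.4%). The higher count was 1 in DESeq2 and 2 in limma on TPM, where 164 and 131 of all 14694 genes were higher at that level. Stress values lay above all enriched values for 6 of 76 genes, where the background was 5.06%.

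That gene was Rpl23, at 155, 151 and 186 CPM in stress and 136, 135 and 122 CPM in enriched libraries, with no overlap. Controls were at 182, 163 and 137 CPM, so stress 3 lay above the highest control, the other stress libraries lay within the control range, and control 3 lay next to the enriched libraries. The log2 fold change of stress against enriched was 0.32 ± 0.13 (SE, unadjusted p = 0.0293, adjusted p = 0.999). With the length trend taken out it was 0.22 ± 0.07. Rpl10a, Rpl37, Rpl7 and Rps3a1 followed with log2 fold changes of 0.29, 0.29, 0.22 and 0.20, and Rpl37 alone of these overlapped between the groups. Rpl10a, the large subunit protein commonly tagged to purify ribosomes from chosen cell types, had 0.17 ± 0.07 after the length trend was taken out (unadjusted p = 0.0394). These were the 2 of 76 core genes with an unadjusted p under 0.05 after that step, both higher in stress, where 1.31% of all genes were higher and 1.49% lower.

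The animal code letter was confounded in part with the groups. Among D animals, controls 2 and 3 held 2.07% and 1.98% of counts in core genes and the enriched animals 1.94%, 1.68% and 1.70%. Among C animals the only control is control 1, at 2.77%, against 1.85%, 1.74% and 2.17% in stress. With the letter in the fit, the median log2 fold change was -0.60 for stress and -0.21 for enriched against control and -0.39 for stress against enriched, which turned its direction. The medians over all genes in that fit were 0.025, 0.01 and 0.004, in the same order. Counts of core genes by p-value are not given for that fit, because control 1 is the only control among C animals. What the letter stands for and the high value of control 1 cannot be told apart in the stress comparison.

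Reads of several members are shared with near-identical copies, and their estimated counts are uncertain. The sequence shared by Rps27, whose protein has a zinc finger, and its retrocopy Rps27rt is shown because all 255 coding bases are identical. Rps27 lies on chromosome 3 and Rps27rt on chromosome 9 (GENCODE M21, GRCm38), and start and stop codons are in capitals.
Rps27: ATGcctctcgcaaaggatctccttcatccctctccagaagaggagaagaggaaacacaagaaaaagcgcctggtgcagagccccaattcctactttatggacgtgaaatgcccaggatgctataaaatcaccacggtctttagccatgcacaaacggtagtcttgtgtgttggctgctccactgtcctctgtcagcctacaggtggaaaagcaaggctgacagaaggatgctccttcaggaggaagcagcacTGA
Rps27rt was given between 5.02% in stress 3 and 20.2% in stress 2 of the pair's CPM, and control 1 had 6.59%. The level of the pair was 182, 164 and 241 CPM in stress, 386, 185 and 221 CPM in control and 222, 179.7 and 209 CPM in enriched libraries. Over the libraries Rps27rt had a correlation of -0.18 with the median of the core, while Rps27 had 0.89 with the median of the other core genes.

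Rpl37 and its retrocopy Rpl37rt differ at 1 of 294 coding bases, so fragments of the coding sequence away from that base match both. The lines show coding bases 234 to 263 of each, on chromosomes 15 and 5, with the differing base in capitals.
Rpl37: ccgtgagggaacaacGccgaaacccaagag
Rpl37rt: ccgtgagggaacaacAccgaaacccaagag
Rpl37rt was given 8.15% to 17.9% of the pair's CPM, and its correlation with the median of the core was -0.34. Rpl32l matched Rpl32 at 388 of 398 aligned bases and was given 0.673% to 2.12% of the pair's reads.

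Rps6, the ribosomal protein phosphorylated by S6 kinases downstream of mTORC1, departed most from the family. It was given 354 to 538 reads in a library, or 26.7 ± 5.86 CPM in stress, 29.6 ± 2.60 in control and 25.7 ± 2.87 in enriched animals. The entry Rps6-ps4, left out of the family as a pseudogene by name, contains the whole Rps6 coding sequence, 750 of 750 bases identical, and was given between 91.9% and 95.4% of the pair's CPM. Summed, the pair was at 438, 408 and 474 CPM in stress, 612, 479 and 413 CPM in control and 427, 361 and 361 CPM in enriched libraries, with control 1 highest as in the rest of the family. The summed pair had a log2 fold change of -0.39 ± 0.15 in enriched against control animals (edgeR, unadjusted p = 0.0255, adjusted p = 0.236), where Rps6 alone had -0.20 ± 0.16. In stress against control animals it had -0.19 ± 0.15.

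**Figure D5:**
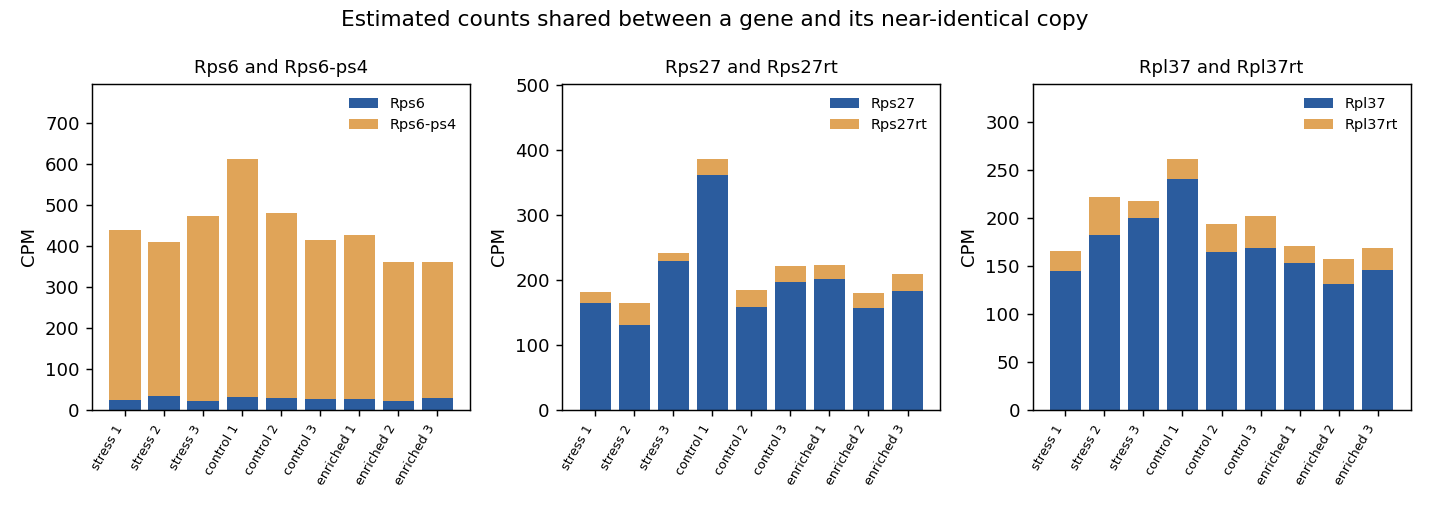
Level in CPM of Rps6, Rps27 and Rpl37 (lower part of each bar) and of their near-identical copy (upper part) in each library. Rps6-ps4 holds at least 91.9% of its pair, while Rps27rt and Rpl37rt hold at most 20.2% and 17.9%.

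Of the 10 paralogs and retrocopies with a row, 7 passed the filter on low counts, and Rpl3l, Rpl39l and Rps23rg1 did not. Rpl3l, the striated muscle form of Rpl3, had 2 to 10 reads in a library, Rpl39l, known from male germ cells in mice, 0 to 4 reads and Rps23rg1 0 to 1.2 reads. The levels of Rps27l, a paralog of Rps27 induced by p53, were 9.96, 10.2 and 11.7 CPM in stress, 17.97, 15.6 and 13.2 CPM in control and 12.2, 9.75 and 10.5 CPM in enriched libraries. Both groups lay below every control. Its log2 fold changes against control were -0.56 ± 0.15 in stress (unadjusted p = 0.00468, adjusted p = 0.546) and -0.53 ± 0.15 in enriched animals (unadjusted p = 0.00623, adjusted p = 0.236), and became -0.24 ± 0.11 and -0.09 ± 0.11 with the length trend taken out. Rpl36al, a paralog of Rpl36a, held 32.4% to 38.3% of the reads of that pair and was at 47.1, 42.6 and 44.6 CPM in enriched and 84.0, 61.7 and 49.1 CPM in control libraries. These did not overlap, and the log2 fold change was -0.54 ± 0.18 (unadjusted p = 0.0138, adjusted p = 0.236). Without control 3 both Rps27l and Rpl36al passed the adjusted threshold in enriched against control animals, with adjusted p of 0.0436 and 0.0416. In that fit 1586 of all 14853 genes passed. Rpl22l1, a paralog of Rpl22, held 19.0% to 23.9% of its pair, with 30.7 ± 1.37, 37.3 ± 9.65 and 29.5 ± 3.26 CPM in stress, control and enriched animals. Rpl7l1 was at 55.3 ± 6.30, 56.7 ± 4.91 and 51.4 ± 0.993 CPM. Rps19bp1 was at 16.3 ± 4.89, 19.4 ± 3.50 and 14.4 ± 0.705 CPM.

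Use of alternative transcripts within genes is given for examples chosen after their values were seen, with no test. The short model of Rps24, with an effective length of 503.1 bases, took 45.4% ± 2.45 of the gene's reads in stress, 41.6% ± 2.04 in control and 44.0% ± 3.72 in enriched animals. The short model of Rpl5, a gene whose protein joins Rpl11 and the 5S ribosomal RNA, took 41.0% ± 2.67, 41.9% ± 2.72 and 42.7% ± 1.06. For these models the groups overlapped. Some minor models did not overlap between groups. How many of all models do so was not counted, so these are examples and no result about the genes named. A minor model of Rps10 took 3.34% to 6.12% of the gene's reads in stress, 0.00% to 2.47% in control and 0.00% in enriched libraries. A minor model of Rpl38 took 2.95% to 3.63% in stress, 4.67% to 4.83% in control and 3.64% to 4.36% in enriched libraries. One of Rpl21 took up to 1.18% in stress, 0.56% to 0.84% in control and 1.04% to 1.21% in enriched libraries, and every stress library lay above every control.

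Genes of related processes were read from the same fit, in lists chosen with earlier results known. Each list had 0 genes past the adjusted threshold. Over all genes tested, an unadjusted p under 0.05 was found with lower values for 3.78% in stress and 10.4% in enriched against control animals, and with higher values for 4.2% and 9.93%. Of 77 mitochondrial ribosomal proteins, 40 had an unadjusted p under 0.05 and lower values in enriched than in control animals and 0 had higher values, and in stress against control 5 were lower and 1 higher. Their median log2 fold changes were -0.23 for stress and -0.36 for enriched animals, and -0.06 and -0.08 with the length trend taken out. Mrps11 was at 27.4 ± 1.72, 37.6 ± 7.12 and 26.6 ± 2.08 CPM in stress, control and enriched animals, and Mrps6 at 33.6 ± 2.59, 45.3 ± 9.29 and 30.9 ± 3.42 CPM. Of 14 core proteasome subunits, 12 had an unadjusted p under 0.05 with lower values in enriched animals and 3 in stress, with medians of -0.37 and -0.18 that became -0.03 and 0.00. Psmb5, a catalytic subunit, was at 71.7 ± 9.10, 94.3 ± 18.9 and 65.7 ± 0.761 CPM.

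Translation factors and other genes known for the same type of 5′ tract were examined as 18 tested genes. In stress against control 3 had an unadjusted p under 0.05 and lower values and 1 higher, and in enriched against control 4 had lower values. The median log2 fold changes were -0.14 and -0.26, and 0.02 for both with the length trend taken out. Npm1, nucleophosmin, which acts in ribosome assembly, was at 159 ± 8.19 CPM in stress, 124 ± 3.76 CPM in control and 121 ± 16.2 CPM in enriched animals. Its log2 fold change in stress against control was 0.36 ± 0.11 (edgeR, unadjusted p = 0.00793, adjusted p = 0.546), a direction opposite to the ribosomal protein genes. Eef1b2, an exchange factor of elongation factor 1, was at 109 ± 8.53 CPM in enriched and 153 ± 33.5 CPM in control animals. Of 25 tested ribosome biogenesis genes, 1 was lower in stress and 2 were lower in enriched than in control animals at an unadjusted p under 0.05, with none higher, so the lower counts were near the shares of all genes. They were Bop1, needed for large subunit assembly, in both, at 54.3 ± 5.81, 66.8 ± 8.42 and 53.4 ± 3.54 CPM in stress, control and enriched animals, and Nhp2 in enriched animals. Of the 15 mTORC1 pathway genes 0 passed that level in stress and 1, Akt1s1, was lower in enriched than in control animals, at 60.9 ± 3.91 against 78.5 ± 14.5 CPM. Between stress and enriched animals 1 of the 15 was higher in stress, Rps6kb2, a kinase of Rps6, at 22.8 ± 3.83 against 16.0 ± 2.39 CPM (edgeR, unadjusted p = 0.0170, adjusted p = 0.999), where the share of all genes was 1.25%.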

How the data were processed

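The deposited table gives, for each RefSeq transcript and library, an estimated count, a TPM and an FPKM, per the file headers. Per the submitters' processing notes, RSEM 1.2.12, Bowtie2 2.2.5, HISAT2 2.0.4 and the build GRCm38.p6 were used, in roles not stated there. Per the labels' protocols, oligo(dT)-selected RNA was fragmented and copied from random hexamers. The estimated counts deposited by the authors need not be whole (56.5% were not), were summed per gene over 65535 transcript rows and rounded. The TPM of these rows summed to 956737 to 960729 in a library, short of the total to which TPM is scaled, so some transcripts have no row. Library totals and shares above are of the rows present. Whether genes without a row, such as Rps7, are absent for this reason was not tested. The deposited TPM, scaled by transcript length and library size by the authors, was used for levels and in 1 alternative. The deposited FPKM served with the counts to derive effective length, for values of at least 0.5. Symbols came from RefSeq, matching 18398 of 18450 genes.

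After filterByExpr (minimum count 10, total 15), 14694 genes, 84 of the 87 members included, entered 1 edgeR 4.0.16 quasi-likelihood fit of all 9 libraries with TMM scaling (factors 0.964 to 1.025, 6 residual degrees of freedom) in R 4.3.3. P-values of all 14694 genes were adjusted together (Benjamini-Hochberg), and standard errors follow from the F statistic. The fit was tested on simulated data with larger fold changes than those of the core genes here, so that test does not cover changes of their size. At this depth 1 CPM equals 15.9 to 16.8 reads. DESeq2 1.42.0, its size factors, limma 3.58.1 on log2(TPM + 1), no filter, a length trend (lowess, span 0.5) as offset, the code letter as covariate and each library left out were alternatives. Fold changes on the TPM scale understate those of low genes.

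Members and lists were chosen with earlier results of these data known. Named are the stalk genes, Rpsa and Rps27a, every paralog, the 5 shortest and longest, the 5 highest and lowest, the 5 core genes with the smallest p per comparison, and 2 genes per related list and comparison, of which those bearing on the family are given. Rps24, Rpl5, the minor models of Rps10, Rpl38 and Rpl21, Rpl41, Rpl36, Rpl29, Rps19 and Rps6-ps4 were added after their values were seen.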

Additional observations from a re-analysis of the deposited data

How the results depend on the processing

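The median log2 fold change of the 76 core genes was -0.28 for stress against control, -0.40 for enriched against control and 0.11 for stress against enriched animals. With the length trend removed it was -0.0074 and -0.0022 against control, in that order. With the animal code letter as a covariate it was -0.60 for stress against control and -0.39 for stress against enriched, a fit that in effect sets stress against control 1 alone. From limma on log2(TPM + 1) it was -0.18 for enriched against control, where the median of all genes was 0.16, and -0.11 for stress against control, where it was 0.12, so the family lay 0.34 and 0.24 below all genes. Leaving out 1 library gave -0.41 to -0.10, -0.49 to -0.22 and -0.01 to 0.19 for the 3 comparisons. The number of core genes called was 0 under every alternative except enriched against control without control replicate 3, so that it ranged from 0 to 7 over the libraries left out. In the fit with 7 calls, 1586 of all 14853 genes were called. DESeq2 called 7 of all 14694 genes in stress and 40 in enriched against control. Among 18 single-gene results with 288 values under 16 alternatives, 278 kept their sign and side of the threshold and 4 passed the threshold, all without control 3. The 6 of opposite sign were Rpl35a (0.0477) and Rps18 (0.0616) in enriched against control with the length trend removed, and Rpl10a (-0.17), Rpl37 (-0.24), Rpl7 (-0.23) and Rps3a1 (-0.24) in stress against enriched with the code letter. Apart from the length trend and the letter, whose construction changes the comparison, the cause was not tested. Summing Rps6 with Rps6-ps4 was chosen after seeing the data and changed no count of calls. No paired analysis was possible because the labels give no replicate numbers shared between groups. With 3 animals a group the median standard error of a log2 fold change was 0.17, and differences of that size in single genes were not detectable.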
